A study of Mus musculus with 4 samples.

Results

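The G2 and mitosis genes described here are 42 genes that dividing cells use late in the cell cycle: the kinase gene Cdk1 and its cyclins, the kinases that start and steer mitosis, the proteins of the kinetochore, spindle and cleavage furrow, and genes of chromosome structure such as Top2a and Mki67. They were chosen by name, and all 42 were present among the 32285 mouse genes counted. They lie on 18 chromosomes, and 12 of them overlap another counted gene, 2 of these (Anln with Gm48646 and Ncapd2 with Gm28967) on the same strand, so that their counts are less certain. For each barcode (a droplet that may hold a cell) the UMIs of the 42 genes were summed and expressed per 10000 UMIs, a UMI being the tag of 1 captured RNA molecule, and each gene was expressed in CPM of a cell class in a library, where 100 CPM are 1 UMI in 10000. Since these 3′ UMIs count molecules and not fragments, levels were not divided by gene length.

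scRNA-seq had been performed on C57BL/6J mice that were 8-16 weeks old, with 1 library for each of 4 groups: spleen and bone marrow (BM) of control mice (CS and CBM) and of mice bearing a tumor (TS and TBM). Tumors were grown from transplanted PyMT-B6 cells, which derive from the MMTV-PyMT model, where the mammary tumor virus promoter drives the oncogene in mammary gland. Both tissues were digested, depleted of lineage-positive cells, and sorted into c-Kit+ hematopoietic gates (Sca-1+ and Sca-1-) and CD45- gates set by CD31 and CD51, which were pooled in equal parts, so the share of each class was set by the sort. How many mice a library came from is not given in the sources used here. With 1 library per group no test between groups was possible. The 95% intervals below cover counting error only and say nothing of the spread between mice. Those of levels and ratios treat each UMI as independent, so they also leave out the spread between barcodes of a class.

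Genes of this kind are switched on together. In resting and G1 cells the DREAM complex holds many of them silent through the MuvB core, which sits on a promoter element called the CHR, and later in the cycle MuvB works instead with B-MYB (gene Mybl2) and FOXM1 to activate them, while NF-Y acts through CCAAT boxes nearby. Their products take the cell through mitosis until the anaphase-promoting complex (APC/C) tags cyclins for destruction. In blood formation most stem cells rest, while erythroid precursors divide repeatedly before they lose their nucleus, so these genes serve to tell dividing from resting progenitors.

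Both promoter elements can be read in the sequences. RefSeq promoters (build GRCm38.p6, 250 bases before to 50 after the annotated start, on the gene's strand) were matched for 35 of the 42 genes. The 6 below were chosen to show the kinase and its cyclins B, the APC/C activator, and the 2 most abundant members: Cdk1 (chr10:69352863-69353162), Ccnb2 (chr9:70421505-70421804), Ccnb1 (chr13:100786437-100786736), Cdc20 (chr4:118437294-118437593), Top2a (chr11:99024140-99024439) and Mki67 (chr7:135716330-135716629), all on the minus strand. Capitals mark the CHR letters TTTGAA or TTCGAA (on the other strand TTCAAA or again TTCGAA) and the CCAAT box (on the other strand ATTGG).
Cdk1: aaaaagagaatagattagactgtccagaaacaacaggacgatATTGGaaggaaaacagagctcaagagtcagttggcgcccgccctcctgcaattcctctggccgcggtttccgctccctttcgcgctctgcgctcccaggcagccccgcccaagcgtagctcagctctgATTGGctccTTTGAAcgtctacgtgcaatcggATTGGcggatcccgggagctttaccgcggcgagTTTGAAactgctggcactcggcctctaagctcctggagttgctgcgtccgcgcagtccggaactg
Ccnb2: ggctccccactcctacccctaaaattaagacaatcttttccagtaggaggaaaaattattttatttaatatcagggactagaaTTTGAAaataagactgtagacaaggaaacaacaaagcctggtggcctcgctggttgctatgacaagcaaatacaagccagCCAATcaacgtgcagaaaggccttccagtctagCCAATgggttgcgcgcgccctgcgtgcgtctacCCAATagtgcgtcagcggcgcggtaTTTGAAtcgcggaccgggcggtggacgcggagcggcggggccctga
Ccnb1: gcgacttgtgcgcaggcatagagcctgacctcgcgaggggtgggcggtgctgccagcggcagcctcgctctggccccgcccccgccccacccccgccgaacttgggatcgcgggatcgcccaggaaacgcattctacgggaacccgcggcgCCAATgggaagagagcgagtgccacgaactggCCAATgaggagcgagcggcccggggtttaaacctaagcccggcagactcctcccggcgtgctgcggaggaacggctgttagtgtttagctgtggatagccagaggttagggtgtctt
Cdc20: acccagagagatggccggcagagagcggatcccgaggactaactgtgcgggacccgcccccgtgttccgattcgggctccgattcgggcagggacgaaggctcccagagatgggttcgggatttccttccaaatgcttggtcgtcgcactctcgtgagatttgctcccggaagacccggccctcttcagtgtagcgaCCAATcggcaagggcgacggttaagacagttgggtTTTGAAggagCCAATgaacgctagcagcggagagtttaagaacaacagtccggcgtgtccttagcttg
Top2a: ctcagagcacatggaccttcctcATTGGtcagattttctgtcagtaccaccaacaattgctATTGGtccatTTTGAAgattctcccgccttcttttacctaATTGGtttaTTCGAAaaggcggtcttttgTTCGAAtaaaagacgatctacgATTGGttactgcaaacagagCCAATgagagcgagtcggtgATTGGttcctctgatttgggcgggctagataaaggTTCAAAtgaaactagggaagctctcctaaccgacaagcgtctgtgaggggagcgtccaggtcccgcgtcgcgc
Mki67: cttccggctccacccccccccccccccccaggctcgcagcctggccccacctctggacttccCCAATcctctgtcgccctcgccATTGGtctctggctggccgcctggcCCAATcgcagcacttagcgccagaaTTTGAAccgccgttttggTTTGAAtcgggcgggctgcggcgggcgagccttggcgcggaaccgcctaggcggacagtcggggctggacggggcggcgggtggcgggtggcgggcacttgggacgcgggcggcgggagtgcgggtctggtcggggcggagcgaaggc

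Each gene was counted once, with a match in any of its promoters, so the promoter numbers below are numbers of genes. The CHR letters, searched on both strands, were in 28 of the 35 members (80.0%) and in 21.7% of all 27025 genes with a promoter. They lay within 50 bases of the start in 24 of the 35 (68.6%) and in 6.12% of all promoters, a window set after the values had been seen. CCAAT was in 27 (77.1%) of the members' promoters and in 41.1% of all, and both elements together were in 24 (68.6%) and in 8.61%. In 8 members (Cdk1, Ccnb1, Ccnb2, Aurka, Cdca3, Cdca8, Ube2c and Hmmr) 2 CCAAT boxes began 31 to 35 bases apart, as they did in 1.53% of all promoters, a distance also chosen after the sequences had been seen. Ccnb1, Birc5, Nuf2, Cenpe, Nusap1, Tacc3 and Gtse1 had no CHR letters in the window. Among other genes of the cell cycle, the CHR letters were in 18 of 26 promoters of other mitosis genes, in 4 of 20 of S phase genes and in 0 of 6 of G1 cyclins and kinases. A match describes letters and does not show binding.

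Barcodes with at least 1000 genes and at most 10% mitochondrial UMIs numbered 3497 for CBM, 4340 for TBM, 3236 for CS and 5188 for TS, 16261 in all, with medians of 13738 to 26808 UMIs, and they held 58.1 to 79.4% of the UMIs of their libraries. The libraries held 101811035 to 176094297 UMIs. CBM and TBM shared 9 barcodes, where chance gives 2.23. The other pairs of libraries shared 2 to 5, where chance gives 1.67 to 3.31. Barcodes were clustered without the 42 members, the other cell cycle lists and the histone genes, and the 35 clusters were named from marker genes where these allowed it; 13 clusters with 5016 barcodes had no class name, among them those called here by their leading genes Scin Slc45a3 or Trnp1. In barcodes with at most 100 UMIs, taken as free RNA, the members made up 26.1 UMIs per 10000 for CBM, 27.4 for TBM, 24.2 for CS and 29.9 for TS, and no member was at 0. Free RNA therefore carried the members at a level within the range of the classes, and UMIs from it cannot be told apart from a cell's own in a single barcode.

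Member levels differed widely between cell classes. The hemoglobin-rich erythroid-like barcodes, late precursors marked by globin genes and Alas2, had the highest levels among classes with at least 50 barcodes in a library, with 111 member UMIs per 10000 for CBM, 110 for TBM, 117 for CS and 111 for TS. Early erythroid-like barcodes, marked by Klf1, Car1 and Rhag, had 51.0 for CBM, 46.4 for TBM, 42.6 for CS and 43.9 for TS, although the BM values rest on 18 and 29 barcodes. Megakaryocyte-like barcodes had 39.7, 39.5, 45.0 and 42.5 in the same order. The hemoglobin-rich class was the highest of the 3 in all 4 libraries, and the megakaryocyte-like class was below the early erythroid-like one in each library but CS.

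**Figure D1:**
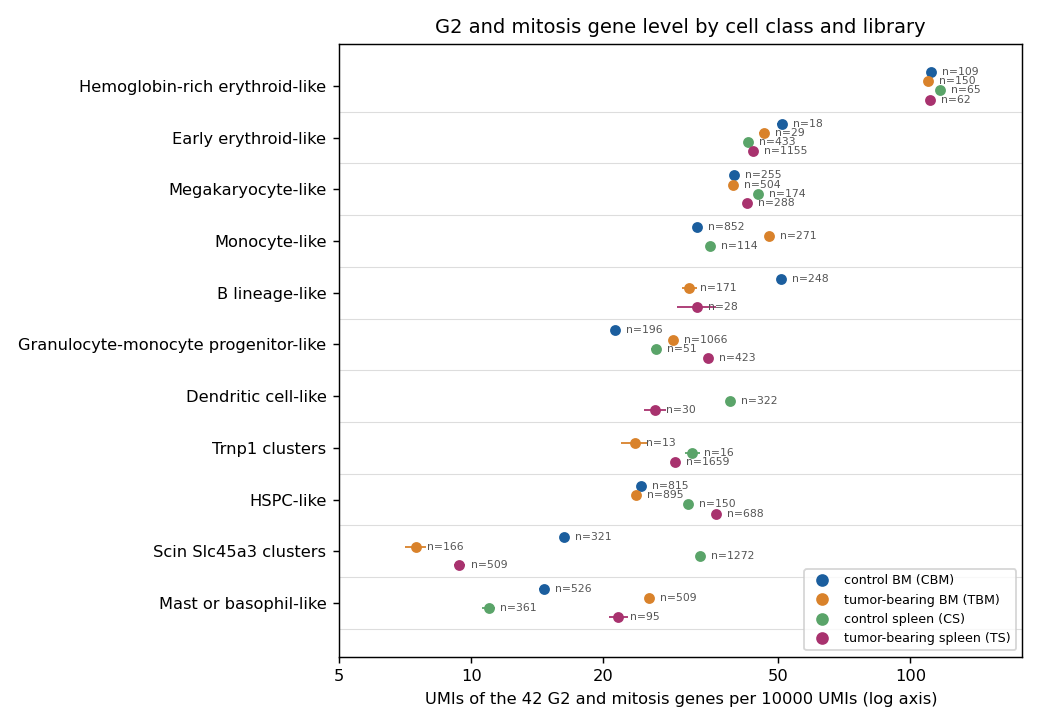
Member UMIs per 10000 UMIs (log axis) in each cell class, 1 point per library with its 95% Poisson interval and n, the number of barcodes; classes and groups with few barcodes are left out. Hemoglobin-rich erythroid-like barcodes sit between 110 and 117 in all 4 libraries, while the Scin Slc45a3 clusters range from 7.47 to 33.2.

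A few dendritic cell-like barcodes of BM, 8 in CBM and 5 in TBM, also had high levels, 97.2 and 155. At the low end in most libraries, mast or basophil-like barcodes had 14.7 member UMIs per 10000 for CBM, 25.3 for TBM, 11 for CS and 21.6 for TS. The Scin Slc45a3 clusters, also low but for CS, had 16.3, 7.47, 33.2 and 9.40. Plasma cell-like barcodes, a largely non-dividing type, gave 6.18 for CS, from 13 barcodes, but 33.3 for TS, from 11. Values below 6.18 came from 4 groups of 2 barcodes each. HSPC-like barcodes, marked by genes such as Hlf, Mecom, Ly6a and Cd34, had 24.4 for CBM (815 barcodes), 23.7 for TBM (895), 31.1 for CS (150) and 36.0 for TS (688). These were above both low groups except in TBM, where mast or basophil-like barcodes were higher, and in CS, where the Scin Slc45a3 clusters were. In each of the 4 libraries the HSPC-like level was below that of the early erythroid-like class. That class does not include the Trnp1 clusters, which held 1659 barcodes in TS and had 29.1 there, below the HSPC-like level. Their early erythroid markers summed to 51.7 per 10000 in TS, against 68.2 in early erythroid-like and 4.43 in HSPC-like barcodes. The order of the HSPC-like libraries was TS, CS, CBM, TBM, and the intervals of CBM (24.1 to 24.6) and TBM (23.4 to 23.9) lay close together.

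Most HSPC-like barcodes held few member UMIs. The median barcode had 4.83 per 10000 for CBM, 5.58 for TBM, 5.09 for CS and 8.40 for TS. The tenth of barcodes with the most member UMIs held 67.0, 59.5, 60.9 and 42.7% of all member UMIs of the class. Barcodes were ranked here by count and not by level, which favors deep barcodes. The class level was thus carried by a minority of barcodes, and by a larger minority in TS. To compare barcodes at 1 depth, each was thinned to 2000 UMIs, and those with 5 or more member UMIs were counted. Their share was 18.7% (95% exact binomial interval 16.0 to 21.5%) for CBM, 22.0% (19.3 to 24.9%) for TBM, 26.0% (19.2 to 33.8%) for CS and 36.2% (32.6 to 39.9%) for TS, with 54, 86, 10 and 64 barcodes at 4 to 6 UMIs, near the cut. Unthinned, the shares with at least 25 per 10000 were 17.8, 19.8, 24.0 and 35.2%. The intervals of TS lay above those of CBM and TBM and overlapped that of CS, and the share and the level of TBM against CBM pointed opposite ways, so no order is read between these BM libraries. Barcodes at or above the cut were deeper than the rest, with median UMIs of 24072 against 12905 for CBM, 22385 against 12135 for TBM, 30395 against 17672 for CS and 20332 against 10941 for TS. For background, the share was 2.50% in the mast or basophil-like barcodes of CS, the class with the lowest share there (median of those under the cut 5210 UMIs), and 94.5% in the hemoglobin-rich barcodes of CBM.

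The S phase genes, which cells need for replication before G2, were at 23.9 UMIs per 10000 in HSPC-like barcodes of CBM, 24.4 for TBM, 23.5 for CS and 30.1 for TS. At 2000 UMIs, 93 barcodes for CBM, 97 for TBM, 22 for CS and 150 for TS had 5 or more UMIs of both gene groups. A further 59, 100, 17 and 99 passed for the members alone, and 199, 222, 30 and 185 for S phase genes alone. In every library more HSPC-like barcodes were above the cut for S phase genes than for the G2 and mitosis genes, at cuts that are not calibrated to each other.

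On the CPM scale, the 42 genes summed to a level in HSPC-like barcodes that was higher in TS than in TBM, with a log2 ratio of 0.61 (0.58 to 0.63), and higher in CS than in CBM, with 0.35 (0.32 to 0.39). TS over CS was 0.21 (0.18 to 0.24), and TBM over CBM was -0.04 (-0.06 to -0.02). A member was counted as higher or lower where its level differed by at least 1.5 times, among genes with at least 50 UMIs over both libraries. By that measure 23 of 42 members were higher in TS than in TBM, against 3.50% of the 11185 genes tested, and 0 were lower, against 7.33%. In CS over CBM 8 members were higher (4.12% of all genes) and 0 lower (4.54%). In TS over CS 3 were higher, Cdca3, Aurkb and Birc5 (4.73% of all genes), and 0 lower (8.87%). In TBM over CBM 0 were higher (3.72%) and 0 lower (4.65%), so the tumor-bearing and control BM differed in no single member at this size. The 4 ratios share libraries and are not independent of each other.

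The spleen to BM difference went with the cluster that held the barcodes. The HSPC-like class was made of 2 clusters, 1 led by Hlf, Nkx2-3 and Adgrl4 and found mostly in BM (774 barcodes for CBM, 764 for TBM, 83 for CS and 56 for TS), and 1 led by Adgrl4, Cxcl2, Selp and Dusp2 and found mostly for TS (41, 131, 67 and 632). The mostly-BM cluster had 17.3 member UMIs per 10000 for CBM, 11.6 for TBM, 11.2 for CS and 11.8 for TS. The mostly-TS cluster had 99.1, 61.9, 52.1 and 37.4. The higher class level of TS over TBM was not seen within either cluster, where the log2 ratio was 0.02 (-0.09 to 0.13) in the mostly-BM cluster and -0.73 (-0.75 to -0.70) in the mostly-TS cluster, in which 35 of 42 members were lower in TS, against 4.63% of all genes. CS over CBM, which was above 0 for the class, was below 0 within both, at -0.63 (-0.70 to -0.57) in the mostly-BM cluster and -0.93 (-0.97 to -0.89) in the mostly-TS cluster. TS over CS was 0.08 (-0.05 to 0.20) and -0.48 (-0.51 to -0.44). TBM was below CBM within both, at -0.57 (-0.61 to -0.54) with 18 of 41 members tested lower (4.89% of all genes) and at -0.68 (-0.71 to -0.64) with 29 of 42 lower (9.79%). The mostly-TS cluster of CBM was small, but 97.6% of its 41 barcodes had 5 or more member UMIs at 2000 UMIs, against 81.7% for TBM, 44.8% for CS and 37.8% for TS. In the mostly-BM cluster that share was 14.5% for CBM, 11.8% for TBM, 10.8% for CS and 17.9% for TS. In each library the cluster thus went with the member level, and most so in BM. The members had been left out of this clustering, and what the link means for ratios within a cluster was not tested. With cell cycle genes kept in the clustering, an HSPC-like cluster led by Dntt and Pimreg held 106, 144, 26 and 215 barcodes. Another, led by Cxcl2 and Dusp2, held 0, 11, 41 and 424. In the mostly-TS cluster of the main clustering, the sum of the HSPC markers was 17 per 10000 for CBM and 12.4 for TS. In the mostly-BM cluster it was 19.1 and 17.5. Whether the clusters are different cells or the same cells in different states was not tested.

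**Figure D2:**
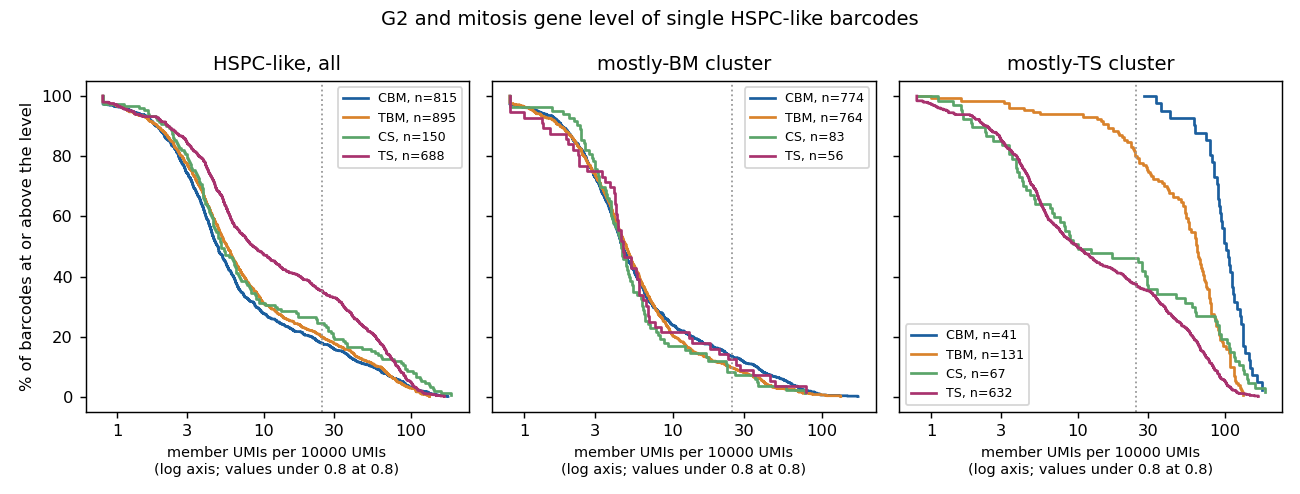
Share of HSPC-like barcodes (vertical axis, %) at or above each member level (horizontal axis, member UMIs per 10000, log axis) by library, for the class and for its 2 clusters; the dotted line marks 25 per 10000. At the dotted line the TS curve lies highest for the class as a whole, and CBM and TBM lie above CS and TS in the mostly-TS cluster. In the mostly-BM cluster the shares at the dotted line are closer, at 13.4% for CBM, 9.56% for TBM, 7.23% for CS and 10.7% for TS.

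By role, the largest part of the member UMIs in HSPC-like barcodes came from the 5 genes of chromosome structure, with 30.9 to 33.4% of member UMIs over the 4 libraries. The 8 kinetochore and checkpoint genes gave 16.0 to 17.3% and the 8 spindle and microtubule genes 12.1 to 12.9%. The other groups, with 2 to 5 genes each, gave between 2.96 and 9.85% each. The make-up by role differed little between libraries, and every role group had a higher summed level in TS than in TBM, with log2 ratios from 0.48 for the APC/C partners to 0.72 for the chromosomal passenger complex.

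Cdk1, the kinase that drives cells into mitosis, was at 75.1 CPM in HSPC-like barcodes of CBM, 71.6 for TBM, 105 for CS and 114 for TS. Ccnb2, a B-type cyclin that activates it, was at 51.3, 63.0, 63.3 and 69.8. Both were lower in each BM library than in each spleen library, but for Ccnb2 the TBM and CS levels were nearly alike, and it had the smallest TS over TBM log2 ratio of all members, 0.15 (0.00 to 0.29). Ccnb1, the other B-type cyclin, had one of the largest CS over CBM log2 ratios, 0.68 (0.42 to 0.95), with 32.2 CPM for CBM, 37.0 for TBM, 51.8 for CS and 60.2 for TS.

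Cdca3, whose product helps to degrade the mitotic inhibitor WEE1 at entry, was at 42.3 CPM for CBM, 51.8 for TBM, 42.5 for CS and 81.0 for TS. Its level in CS was at that of CBM, with TS well above both, and its TS over CS log2 ratio of 0.93 (0.67 to 1.2) was the largest of the 42. Plk1, a kinase of centrosome maturation and spindle assembly, was at 19.6, 18.6, 27.3 and 31.6.

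The chromosomal passenger complex corrects faulty attachments of chromosomes to the spindle. Birc5, which encodes its subunit survivin, was at 84.8 CPM for CBM, 94.8 for TBM, 99.8 for CS and 152 for TS, and Cdca8, which encodes borealin, at 81.5, 84.4, 98.3 and 144. TS was the highest library for both, above 3 libraries that lay close together. Aurkb, the kinase of the complex, had the same shape, with 38.2, 35.6, 34.7 and 58.3, and a TS over CS log2 ratio of 0.75 (0.45 to 1.05).

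Cenpf, a large kinetochore protein that builds up in G2, was at 108 CPM for CBM, 102 for TBM, 150 for CS and 147 for TS. Cenpa, the histone variant that marks centromeres, was at 95.9, 97.6, 135 and 143. Both separated the spleen libraries from the BM libraries and not the tumor-bearing from the control ones. Ube2c, the enzyme that passes ubiquitin to the APC/C, had the same shape with 84.5, 90.1, 127 and 128, and Cdc20, the APC/C activator, was at 43.7, 49.1, 56.1 and 66.0.

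Among spindle proteins, Nusap1, which bundles microtubules near chromatin, was at 74.7 CPM for CBM, 64.6 for TBM, 98.9 for CS and 97.9 for TS, and Tpx2, the activator of Aurora A, at 61.4, 62.4, 77.8 and 104. Nusap1 did not differ between CS and TS beyond counting error, while Tpx2 was higher in TS. Hmmr, a spindle protein bound by TPX2, had the largest TS over TBM log2 ratio, 0.86 (0.70 to 1.02), and Dlgap5, which stabilizes kinetochore fibers, and Mki67 followed with 0.79 each. Ckap2, another microtubule protein, was near the other end with 0.19 (-0.01 to 0.39). Gtse1 was the least abundant member, at 4.17, 4.66, 8.37 and 7.75 CPM from 27 to 83 UMIs, and its CS over CBM log2 ratio of 1.00 had a wide interval, 0.28 to 1.70.

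Kif20b, a kinesin of late mitosis, was at 62.8 CPM for CBM, 61.5 for TBM, 94 for CS and 91.7 for TS, and Kif11, the motor that pushes spindle poles apart, at 64.5, 64.0, 75 and 94.3. Kif4, a chromosome-bound kinesin, had a CS over CBM log2 ratio of 0.68 (0.38 to 0.98). Of the cytokinesis genes, Kif23, a motor of the central spindle, was at 61.1, 45.2, 83.7 and 73.5, and Ect2, the activator of RhoA at the cleavage furrow, at 23.3, 23.7, 35 and 35. Kif23 was the member with the lowest log2 ratio in both tumor-bearing against control comparisons, -0.43 (-0.59 to -0.28) in BM and -0.19 (-0.39 to 0.02) in spleen, the latter with an interval that includes 0. The other low members for TBM over CBM were Ckap2l at -0.36 and Hmmr at -0.27, and the high ones were Ccnb2 at 0.30, Cdca3 at 0.29 and Bub1, a checkpoint kinase, at 0.22.

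Top2a, which untangles DNA before chromosomes separate, was the most abundant member, at 334 CPM for CBM, 294 for TBM, 373 for CS and 474 for TS. Mki67, whose product coats mitotic chromosomes, was at 235, 221, 308 and 383. Both had the order TS, CS, CBM, TBM of the summed level. Ncapd2, a condensin subunit, was among the members with the smallest TS over TBM log2 ratios, at 0.25 (0.07 to 0.42).

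**Figure D3:**
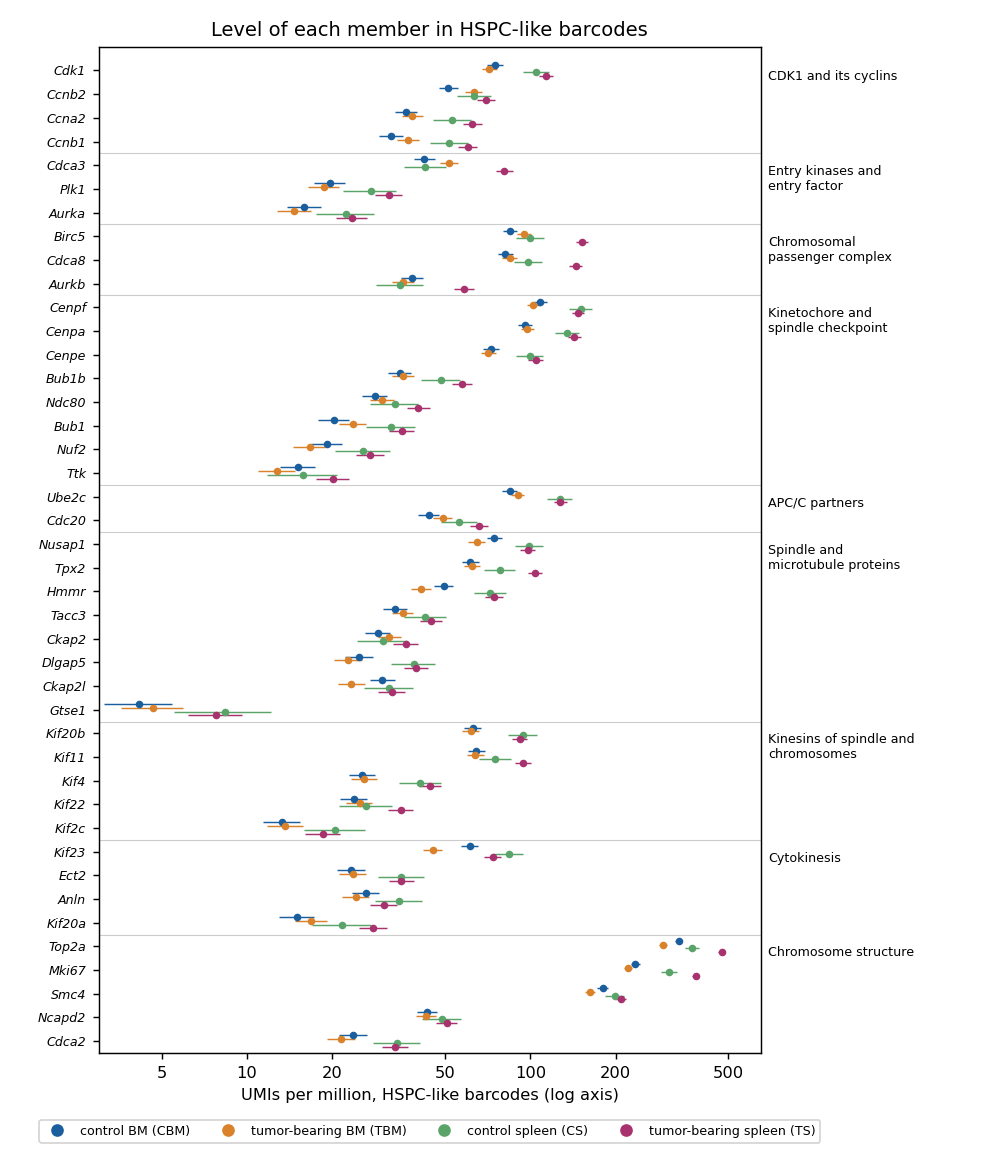
CPM (log axis) of each of the 42 genes in HSPC-like barcodes, grouped by role, 1 point per library with its 95% Poisson interval. Top2a, Mki67 and Smc4 are the most abundant and Gtse1 the least, and for most genes the BM points lie left of the spleen points.

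Other genes of the cell cycle, counted in the same way in HSPC-like barcodes, followed the members in part. In TS over TBM 12 of 31 other mitosis genes were higher (3.50% of all genes) and 0 lower (7.33%), with a median log2 ratio of 0.49 against 0.64 for the 42 members and -0.03 for all genes. Kif15, a second spindle motor, was at 91.0 CPM in TS and 51.5 in TBM, and Incenp, the scaffold of the passenger complex, at 122 and 70.0. Of the S phase genes 1 of 24 was higher (Rrm2, a subunit of ribonucleotide reductase), with a median of 0.33, and of 9 G1 cyclins and kinases 1 was (Ccne1). In TS over CS 3 of 31 other mitosis genes and 5 of 24 S phase genes were higher (4.73% of all genes), and 0 of either were lower (8.87%).

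The regulators of these genes had low levels in HSPC-like barcodes. Foxm1 was at 12.1 CPM for CBM, 13.6 for TBM, 12.7 for CS and 20.1 for TS, and Mybl2 at 12.8, 15.3, 15.8 and 23.7, so both were highest for TS. They were the 2 of 12 regulators that were higher in TS over CS (4.73% of all genes), and Mybl2 was the 1 of 12 in TS over TBM (3.50%). Lin9, a subunit of the MuvB core, was at 27.6, 24.2, 30.4 and 31.3. Among CDK inhibitors and antiproliferative genes, Cdkn1a, which encodes p21, was at 124, 176, 163 and 250, and Btg2 at 190, 221, 443 and 715, while Cdkn1c, which encodes p57 and is known in resting stem cells, was at 8.96, 5.88, 5.89 and 2.52. Of the 9 genes of that list tested in TS over TBM, Btg2 was the 1 higher (3.50% of all genes) and Cdkn1c the 1 lower (7.33%). TS thus had the highest summed levels of the G2 and mitosis genes and also of Cdkn1a and Btg2, measured over the whole class and not in the same barcodes.

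**Figure D4:**
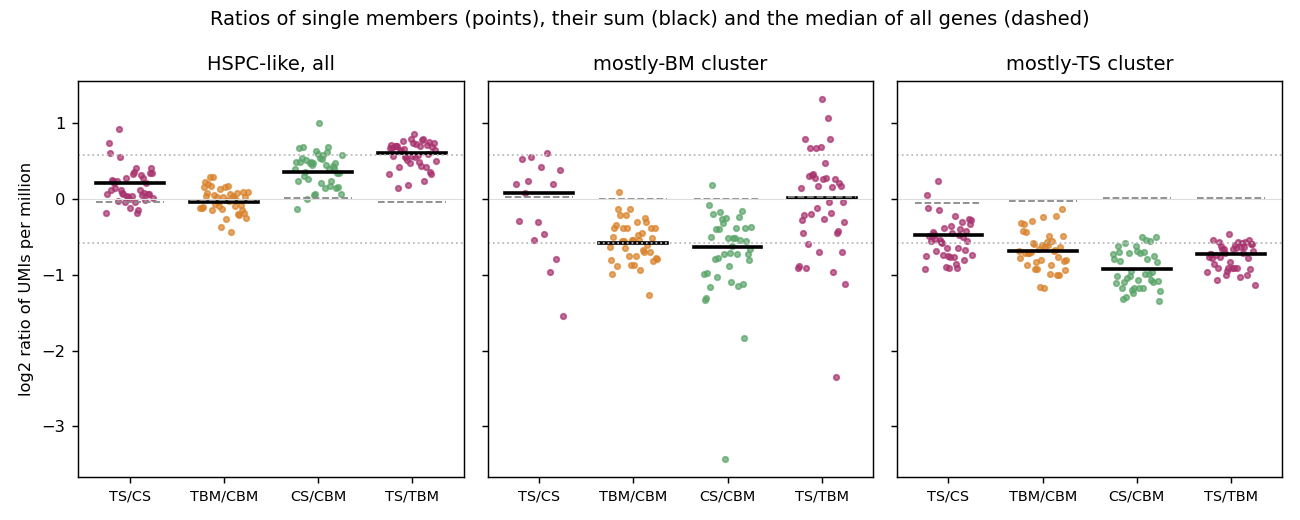
Log2 ratio of CPM of each member (points, members with at least 50 UMIs), of their sum (black line) and the median of all genes tested (dashed) for 4 comparisons in the HSPC-like class and in its 2 clusters; dotted lines mark 1.5-fold. TS over TBM lies above 0 for the class, about 0 in the mostly-BM cluster and below 0 in the mostly-TS cluster.

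Most early erythroid-like barcodes held member UMIs above the cut used for HSPC-like barcodes. Their share with 5 or more at 2000 UMIs was 77.8% for CBM, 75.9% for TBM, 75.8% for CS and 83.8% for TS, and the median barcode had 39.4, 49.5, 37.2 and 40.4 per 10000. Unthinned, the shares with at least 25 per 10000 were 83.3, 86.2, 76.0 and 88.1%. In spleen, where the class is large, the summed level of TS over CS had a log2 ratio of 0.04 (0.03 to 0.05). No member differed by 1.5 times, with 0 higher (3.16% of all genes) and 0 lower (5.30%), and the range over the 42 ran from -0.41 for Anln, an actin scaffold of the cleavage furrow, to 0.38 for Cdc20. Anln was at 43.6 CPM in TS and 58.0 in CS, and Cdc20 at 90.8 and 69.6. The barcodes came from different clusters, 1 with 381 of the 433 in CS and the other with 1154 of the 1155 in TS. Within the latter, TS over CS was -0.25 (-0.27 to -0.22), from 52 barcodes of CS.

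Against the small BM groups, TBM over CBM was -0.14 (-0.19 to -0.08), with 0 members of 39 tested higher (5.22% of all genes) and 5 lower (3.69%). The intervals lay below 0 for 2 of the 5, Ckap2l and Hmmr, and included 0 for Ect2, Ndc80 and Aurka. CS over CBM was -0.26 (-0.30 to -0.22), with 0 higher (13.6%) and 1, Nuf2, lower (10.3%). TS over TBM was -0.08 (-0.12 to -0.04), with 0 higher (12.1%) and 1, Gtse1, lower (12.8%). Anln and Kif23 had the highest CS over CBM log2 ratios, 0.57 and 0.45, and Ube2c and Cdk1 were among the highest for TS over TBM, at 0.52 and 0.37.

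Hemoglobin-rich erythroid-like barcodes had nearly the same summed level in every library. TS over CS was -0.08 (-0.11 to -0.04), TBM over CBM -0.02 (-0.05 to 0.00), CS over CBM 0.07 (0.04 to 0.10) and TS over TBM 0.02 (-0.02 to 0.05). Hemoglobin genes took 25.9% of UMIs for CBM, 24.8% for TBM, 24.0% for CS and 12.4% for TS, and the median log2 ratio of all genes was 0.18 for TS over CS and 0.23 for TS over TBM, so the members of TS were lower against all genes than against the UMI total. In TS over CS 2 of 41 members tested were higher, Cdc20 and Cdca2 (16.3% of all genes), and 0 lower (4.97%). In TBM over CBM 0 were higher (4.35%) and 0 lower (5.30%), in CS over CBM 0 higher (4.48%) and 0 lower (5.54%), and in TS over TBM 1, Cdc20, was higher (19.3%) and 0 lower (5.37%). Cdc20 was at 84.4 CPM for CBM, 75.9 for TBM, 75.2 for CS and 125 for TS. At 2000 UMIs, 135 of 150 barcodes of TBM and 93.8 to 96.8% of those of the other libraries had 5 or more member UMIs (unthinned, at least 25 per 10000, 94.5, 89.3, 93.8 and 98.4%).

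The make-up of the member UMIs differed between hemoglobin-rich erythroid-like and HSPC-like barcodes more than between libraries of 1 class. The summed level was 4.56 times higher in hemoglobin-rich than in HSPC-like barcodes for CBM, 4.63 times for TBM, 3.75 times for CS and 3.08 times for TS, and 40 of the 42 members were higher in all 4 libraries. The exceptions were Kif20b and Cdca2, which were lower in CS, with log2 ratios of -0.45 and -0.16. The share of all genes that were higher was not computed for these 2 classes, so the 40 of 42 cannot be set against it. As a share of member UMIs, 8 genes took a larger part in all 4 libraries (Mki67, Ube2c, Birc5, Ccna2, Cdca3, Dlgap5, Aurka and Nusap1) and 26 a smaller part. Shares of a fixed total are not independent, so a larger part for Mki67 leaves less for the others. Mki67 was at 2138 CPM for CBM, 2452 for TBM, 2549 for CS and 2144 for TS and made up 19.2 to 22.4% of member UMIs, against 9.34 to 10.6% in HSPC-like barcodes. Ube2c was at 776, 750, 761 and 694 and Birc5 at 716, 702, 789 and 722, with log2 ratios over HSPC-like barcodes of 2.44 to 3.2 and 2.25 to 3.08. Top2a, the leading member in HSPC-like barcodes with 12.0 to 13.7% of member UMIs, made up 8.43 to 10.2%. Kif20b had the largest ratio of shares toward HSPC-like barcodes, with 2.55 to 3.02% of member UMIs there and 0.587 to 0.923% in hemoglobin-rich barcodes. The 3 highest members together held 28.2 to 30.7% in HSPC-like and 35.8 to 37.7% in hemoglobin-rich barcodes.

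**Figure D5:**
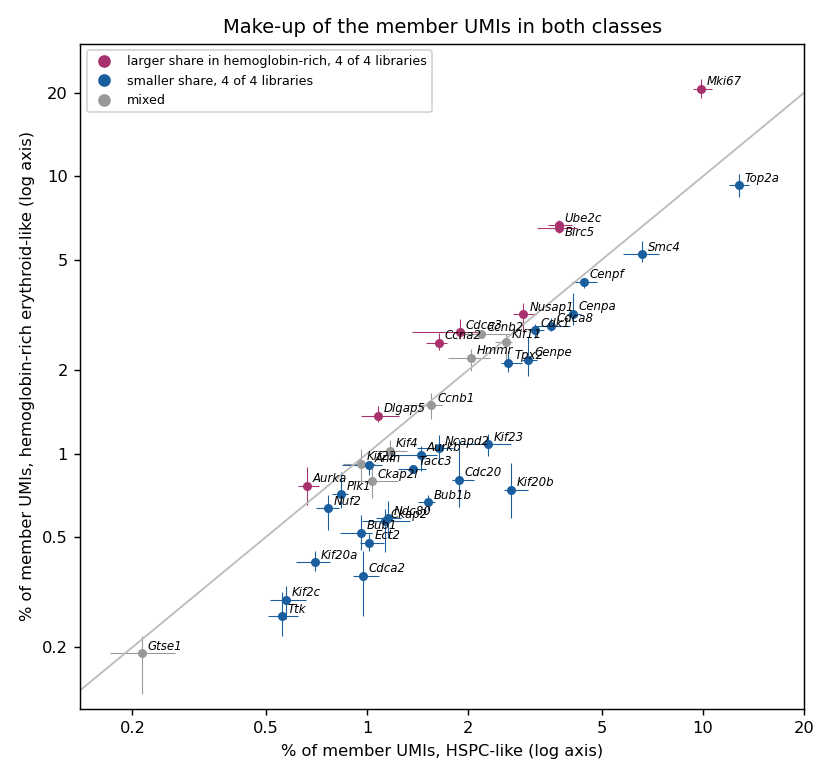
Percent of member UMIs taken by each gene in HSPC-like (horizontal) and hemoglobin-rich erythroid-like barcodes (vertical), both on log axes; points are means over the 4 libraries, bars span their lowest and highest values, and the line marks equal shares. Mki67, Ube2c and Birc5 lie above the line and Kif20b, Cdca2 and Cdc20 below it.

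In granulocyte-monocyte progenitor-like barcodes, marked by Mpo, Elane and Prtn3, the summed level was 21.2 per 10000 for CBM, 28.8 for TBM, 26.3 for CS and 34.7 for TS, so each tumor-bearing library was above its control. TBM over CBM was 0.44 (0.41 to 0.47), with 16 of 42 members higher (11.9% of all genes, whose median was 0.12), and TS over CS was 0.40 (0.36 to 0.44), with 10 of 42 higher (9.01%). A cluster led by Wfdc21 and Elane was the largest of the class in each library but TS (118 barcodes for CBM, 525 for TBM, 37 for CS and 96 for TS). Most TS barcodes (324) lay in a cluster led by Ms4a3 and Cd14, with 13, 454 and 13 for CBM, TBM and CS. Within the Wfdc21 Elane cluster the log2 ratios were 0.44 (0.40 to 0.48) in BM and 0.32 (0.27 to 0.37) in spleen, tumor-bearing over control. In a cluster led by Elane and Ncam1 (65 barcodes for CBM and 87 for TBM) TBM over CBM was 0.24 (0.14 to 0.34). The share of barcodes with 5 or more member UMIs at 2000 UMIs was 32.7% (26.1 to 39.7%) for CBM, 50.5% (47.4 to 53.5%) for TBM, 37.3% (24.1 to 51.9%) for CS and 64.5% (59.8 to 69.1%) for TS (unthinned, at least 25 per 10000, 25, 44.0, 35.3 and 60.0%).

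In monocyte-like barcodes TBM over CBM was 0.55 (0.53 to 0.56), with 18 of 42 members higher (9.07% of all genes). Here 191 of the 271 barcodes of TBM lay in a cluster led by Chil3 and Fn1 that held 1 barcode of CBM, while TBM over CBM within the clusters both libraries shared was 0.35 (0.29 to 0.40) in one led by Slpi and F13a1 (24 barcodes in TBM and 452 in CBM) and 0.48 (0.44 to 0.52) in one led by Lyz2 and Fn1 (56 and 399). In mast or basophil-like barcodes TBM over CBM was 0.79 (0.74 to 0.84), with 27 of 40 members tested higher (7.96%), and TS over CS was 0.98 (0.89 to 1.07), with 20 of 27 higher (10.8%). The class joined 3 clusters in unequal parts, among them one led by the basophil proteases Prss34 and Mcpt8 with 44 barcodes in CBM and 229 in TBM, and within the clusters TBM over CBM was 0.80 (Prss34, Mcpt8), 0.31 (Ccl6, Ccl3) and -0.59 (Gzmb, Csrp3), so its sign was not the same in all 3. TS over CS was 1.34 (1.15 to 1.53) in the Ccl6 Ccl3 cluster and 0.35 (0.21 to 0.50) in the Gzmb Csrp3 cluster. Some groups showed the reverse. B lineage-like TBM over CBM (171 and 248 barcodes) was -0.69 (-0.76 to -0.63), with 26 of 41 members tested lower (13.6% of all genes). Dendritic cell-like TS over CS (30 and 322) was -0.57 (-0.65 to -0.48), with 23 of 42 lower (17.8%). For T, NK or innate lymphoid-like barcodes (22 and 42) it was -0.68, while the few plasma cell-like barcodes were higher in TS. In the Scin Slc45a3 clusters 42 of 42 members were lower in TS than in CS (10.8% of all genes), with a log2 ratio of -1.82 (-1.86 to -1.78). That difference also lay between clusters: 725 of the 1272 CS barcodes were in a cluster with 42.4 member UMIs per 10000 and 531 in one with 6.31, while 506 of the 509 TS barcodes were in a further one with 9.02.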

How the data were processed

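The authors sequenced 10x Genomics 3′ v3.1 libraries and, per the submitters' processing notes, used Cell Ranger 4.0 with the mm10 genome; the deposited values are whole-number counts of UMIs per gene and barcode for all barcodes, not normalized. Nothing was recovered from later steps of the authors. Here, barcodes with at least 1000 genes and at most 10% mitochondrial UMIs were clustered on Pearson residuals (theta 100, 17399 genes, 50 components, 20 neighbors, Leiden resolution 1.2, scanpy 1.11.5, igraph 0.11.9, Python 3.11) without 129 cell cycle and 74 histone genes. A cluster was named with at least 3 markers of a class at 2-fold or more, of which at least 1 led it. Names were rebuilt, so the classes are not those of the authors. No doublets were removed; leaving out the 5% of barcodes with the highest Scrublet scores was an alternative. Levels are summed UMIs over all UMIs of a class and library, with exact Poisson intervals, ratios have exact conditional intervals and shares exact Clopper-Pearson intervals, all at 95% (scipy 1.17.1). Ratios of single genes needed 50 UMIs over both libraries. Thinning to 2000 UMIs left out shallower barcodes, of which the classes described at that depth had at most 3 in a library. Genes named in the text are the 2 most abundant of each role, 3 at either end of the ratios in each comparison of the HSPC-like and early erythroid-like classes, and those of fixed lists; the others named, including those of make-up and of the lists' examples, were picked with their values known. All members, lists and settings were chosen with earlier results of these data known. The code was tested on simulated counts.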

Additional observations from a re-analysis of the deposited data

Results flagged for a closer look

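The summed level of the G2 and mitosis genes in HSPC-like barcodes was higher in tumor-bearing than in control spleen, with a log2 ratio of 0.21. In BM the ratio had the opposite sign, with -0.043. The spleen ratio was 0.08 (-0.05 to 0.20) within the mostly-BM cluster and -0.48 (-0.51 to -0.44) within the mostly-TS cluster. The BM ratio was 0.066 with the mean over barcodes and 0.045 with classes set by the largest marker score, so no direction is read in BM. In early erythroid-like barcodes the ratios were 0.041 in spleen and -0.14 in BM, where the groups held 29 and 18 barcodes. The difference between the tissues was not tested in either class, since each group was 1 library. In free RNA, which entered no comparison, the member level was higher in both tumor-bearing libraries than in their controls, at 29.9 per 10000 in TS against 24.2 in CS and at 27.4 in TBM against 26.1 in CBM.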

How the results depend on the processing

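Of 56 values under other settings of the 8 log2 ratios of summed level (HSPC-like and early erythroid-like barcodes, each TS over CS, TBM over CBM, CS over CBM and TS over TBM), 46 kept the sign and 54 the side of 1.5-fold, and 24 moved by less than the counting interval. A minimum of 2000 genes per barcode moved none by more than that. Both changes of side fell on HSPC-like TS over TBM, the only main ratio beyond 1.5-fold (0.61, where 1.5-fold is 0.585). It was 0.55 and 0.57 in those settings. The other main ratios were inside 1.5-fold from the start. The ratios that moved were as follows. With the mean over barcodes in place of the sum, HSPC-like ratios were 0.26, 0.066, 0.46 and 0.66 and early erythroid-like ones 0.066, 0.038, -0.21 and -0.18, in the order above. With totals without 114 hemoglobin, mitochondrial and ribosomal protein genes, HSPC-like TBM over CBM, CS over CBM and TS over TBM were -0.067, 0.30 and 0.55, and early erythroid-like TS over CS was 0.020. With 10% of UMIs taken away by the free RNA profile, HSPC-like CS over CBM and TS over TBM were 0.40 and 0.66, and early erythroid-like TS over CS was 0.023. Without the 5% highest Scrublet scores, HSPC-like TS over CS and CS over CBM were 0.27 and 0.31, and early erythroid-like TBM over CBM, CS over CBM and TS over TBM were 0.053, -0.13 and -0.14. With classes set by the largest marker score, HSPC-like TS over CS, TBM over CBM and TS over TBM were 0.29, 0.045 and 0.57, and the early erythroid-like ratios were -0.11, 0.27, 0.40 and 0.010. With cell cycle genes kept in the clustering, HSPC-like CS over CBM was 0.30 and the early erythroid-like ratios were -0.083, -0.50, -0.37 and 0.048.

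Clusters taken alone were added after seeing the data. In the mostly-BM cluster the HSPC-like ratios were 0.077, -0.57, -0.63 and 0.017, and in the mostly-TS cluster -0.48, -0.68, -0.93 and -0.73, the last of which reversed a called value. In the mostly-TS cluster of the early erythroid-like class TS over CS was -0.25 and TBM over CBM -0.41. The cause was not tested. Shares of barcodes at 2000 UMIs moved with the cut by its construction, with HSPC-like shares of 10.6 to 23.1% at 10 or more UMIs and 28.0 to 47.0% at 3 or more. No paired analysis was possible because each group has 1 library. Whether spleen and BM came from the same mice is not given in the sources used here.

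Counting error limits the least abundant genes and, in early erythroid-like barcodes of BM, where the rarest member had 15 UMIs in CBM and 22 in TBM, many single members. The absence of replicate libraries, the pooled sort, the 18 and 29 early erythroid-like barcodes of BM and the unequal clusters limit every comparison between groups.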
